A study of Mus musculus with 12 samples.

Results

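The Hox genes are the homeobox genes of the HoxA, HoxB, HoxC and HoxD clusters, and their expression in the adult still reflects where along the body a tissue was formed. Every probe set whose single gene symbol is Hoxa, Hoxb, Hoxc or Hoxd followed by a number was taken. This gave 37 genes with 1 probe set each, of 19938 genes measured in all. The HoxA cluster on chromosome 6 contributed 10 genes, and the HoxB cluster on chromosome 11, the HoxC cluster on chromosome 15 and the HoxD cluster on chromosome 2 contributed 9 genes each. *Hoxb8* was left out because its probe set is shared with *Hoxb7*.

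mRNA was measured in diaphragm, the muscle of breathing, and in gastrocnemius, a calf muscle, of male C57Bl6 mice, which were 10 to 12 weeks old. The 12 arrays fell into 4 groups of 3, WT and *Cox6a2*-/- (KO) diaphragm and WT and KO gastrocnemius. *Cox6a2* encodes the heart and skeletal muscle form of a subunit of cytochrome *c* oxidase, the last complex of the respiratory chain. KO mice lacked this gene and carried no other allele or treatment that the labels name, and the WT controls were bought C57BL/6J mice rather than littermates, so that a difference of colony and the genotype cannot be told apart. The values are log2 signals, on which a difference of 1 is a 2-fold change. A gene was called at a Benjamini-Hochberg adjusted p under 0.05 in 1 limma fit of the 4 groups over all 19938 genes, and n is 3 arrays in every group below.

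Hox proteins are transcription factors that give cells along the head-to-tail axis their regional identity. Within a cluster the genes are numbered by paralog group in the order in which they lie on the chromosome, and low numbers act near the head while high numbers act in the lower trunk, the limbs and the tail. The diaphragm is built from cells of the cervical level and the gastrocnemius from cells of the lumbar level and the hindlimb, and connective tissue cells as well as muscle keep part of this code in adults.

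The clusters also hold microRNA genes, and their mature sequences (RefSeq, GRCm38.p6) are shown because they are shared between clusters and repress Hox mRNAs in the mouse. Capitals mark the seed, bases 2 to 8, which pairs with the target. All 6 microRNA genes with a value had a mature sequence. *Mir196a-1* (chr11:96265187-96265208, plus strand) and *Mir196a-2* (chr15:102973365-102973386, plus strand) give the same miR-196a-5p, and *Mir196b* (chr6:52230129-52230150, minus strand) gives miR-196b-5p. *Mir10a* (chr11:96317186-96317208, plus strand) and *Mir10b* (chr2:74726074-74726096, plus strand) lie beside paralog 4 genes.
miR-196a-5p: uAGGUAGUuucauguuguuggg
miR-196b-5p: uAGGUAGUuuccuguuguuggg
miR-10a-5p: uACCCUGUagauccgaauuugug
miR-10b-5p: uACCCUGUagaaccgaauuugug
Thus each family has 1 seed. Counted from the 5′ end, miR-196a-5p and miR-196b-5p differed by A12C and miR-10a-5p and miR-10b-5p by U12A, outside the seed in both families. The array probes detect the precursor or host transcript and not the mature form.

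*Cox6a2* itself had a log2 signal of 11.89 ± 0.16 (SD) on the arrays labelled WT diaphragm, 6.89 ± 0.16 in KO diaphragm, and in gastrocnemius 11.74 ± 0.096 in WT and 6.93 ± 0.24 in KO mice. All KO arrays lay below all WT arrays in either muscle, for which an exact two-sided permutation test gave p = 0.1, the smallest possible at this group size. The genotype labels thus held, but the Hox genes of the arrays labelled WT diaphragm went against their tissue label, as given next. Wherever a direction below rests on these 3 arrays, they are called the arrays labelled WT diaphragm.

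For the 18 Hox genes called between the KO muscles, each array was set against the mean of KO diaphragm and the mean of KO gastrocnemius. The 3 arrays labelled WT diaphragm were nearer to KO gastrocnemius for 14, 16 and 15 of these genes. Every WT gastrocnemius array was nearer to KO gastrocnemius for 16 of 18. All 3 arrays labelled WT diaphragm were nearer to KO diaphragm for only *Hoxa3*, which acts in the pharyngeal arches, and *Hoxb5*, which acts at the cervical level, and 1 array of the 3 was nearer to it for *Hoxb4*, *Hoxa11* and *Hoxa13*. Over the 37 genes, centred per gene, Pearson's r ran from 0.584 to 0.743 when an array labelled WT diaphragm was paired with one of WT gastrocnemius, and from -0.886 to -0.757 when its partner was a KO diaphragm array. These are descriptions over genes that share the arrays, and whether the label, the dissection or another cause lies behind them was not tested.

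**Figure D1:**
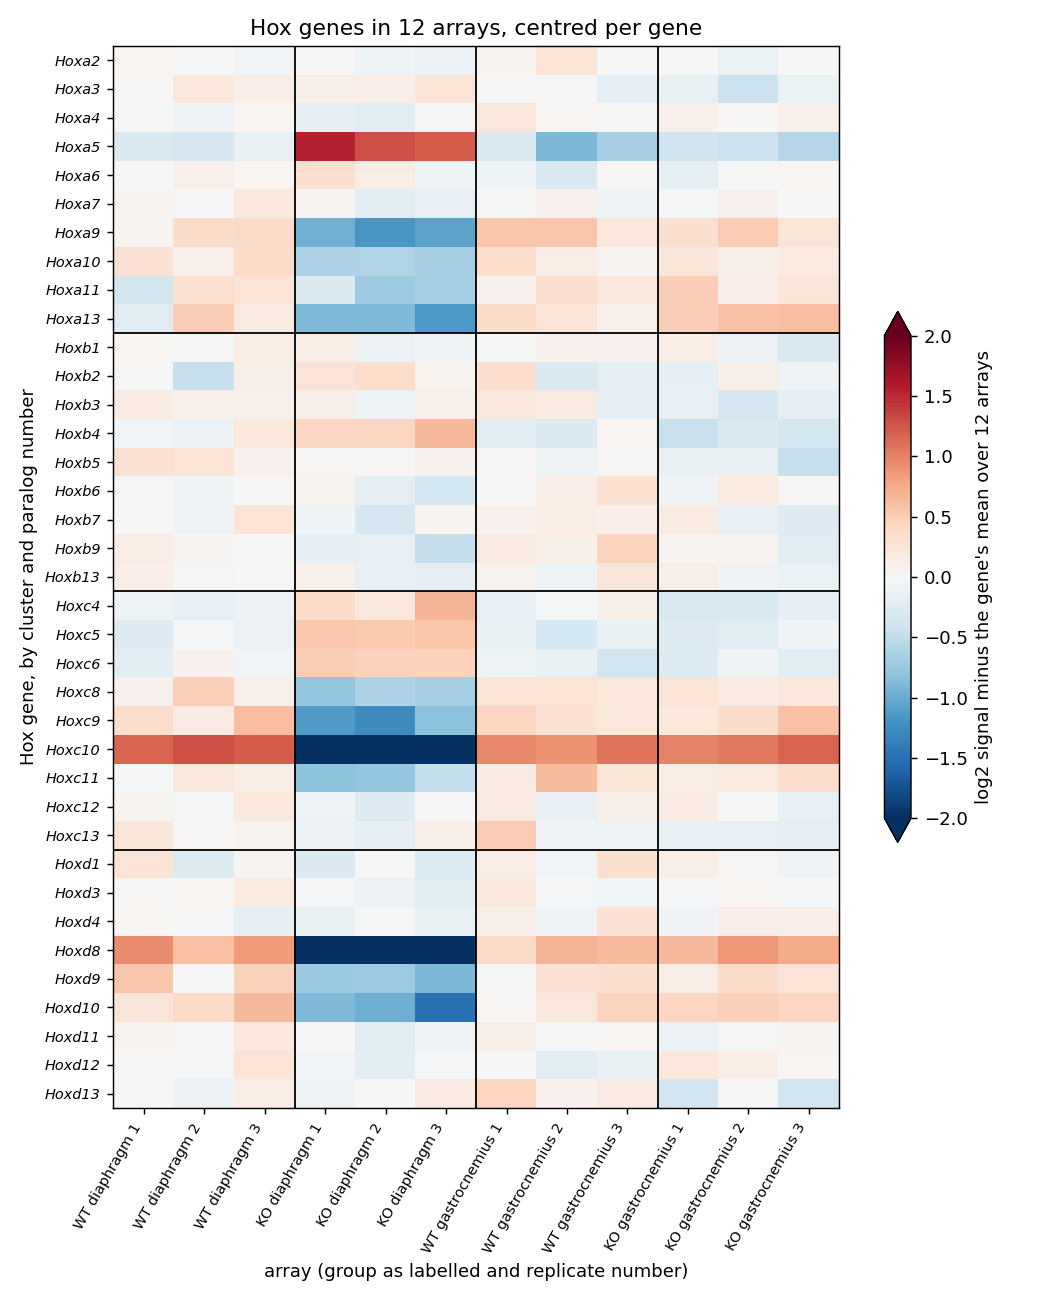
Log2 signal of the 37 Hox genes (vertical axis, by cluster and paralog number) on the 12 arrays (horizontal axis, by labelled group), minus each gene's mean over the 12 arrays, with colour ending at -2 and 2. The 3 KO diaphragm arrays stand apart at *Hoxa5*, *Hoxc10* and *Hoxd8*, while the arrays labelled WT diaphragm look like those of gastrocnemius at these genes.

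Markers of other tissue differed in the same direction. All 8 mesothelium markers, genes of the lining that covers the diaphragm, were called higher between the KO muscles on the diaphragm side, and their mean log2 signal was 7.72 to 8.55 on the KO diaphragm arrays, 5.08 to 5.19 on those labelled WT diaphragm, 5.10 to 5.31 in WT gastrocnemius and 4.99 to 5.10 in KO gastrocnemius. None of the 8 was called between the arrays labelled WT diaphragm and WT gastrocnemius by limma, with 0 at an unadjusted p under 0.05. Of the 10 marker lists, smooth muscle and pericytes gave the only calls in that comparison, where the arrays labelled WT diaphragm had 2 of 5 markers higher, with 3 at an unadjusted p under 0.05. These were *Acta2*, the actin of smooth muscle (10.09 against 9.20, adjusted p = 0.0296), and *Myh11*, its myosin (8.62 against 7.96, adjusted p = 0.0140), which had 9.33 and 7.80 in KO diaphragm. Between the KO muscles, 6 of 7 fibroblast markers were called higher in diaphragm (mean signal 9.43 to 9.78 against 8.91 to 9.04), and so were 5 of 6 endothelial markers (8.81 to 9.07 against 8.12 to 8.24). Of 8 skeletal muscle markers, 3 were higher and 3 lower, and all 8 were above background in every group (mean signal 12.6 on each KO diaphragm array and 13.04 to 13.08 in KO gastrocnemius). The mean difference of -0.44 was drawn down by *Myh4* (8.96 against 13.64), and the median difference of the 8 markers was -0.12. Called higher were also 5 of 5 macrophage, 3 of 3 B cell and 3 of 4 white adipocyte markers, 2 of 5 for smooth muscle and 1 of 7 for satellite cells, of which 2 were lower, and 0 of 3 Schwann cell markers in limma, with 0 at an unadjusted p under 0.05. Of all genes, 17.7% were called higher and 11.2% lower between the KO muscles. The share of higher satellite cell markers, 14.3%, was near the first and is no result about that list. The part of these cells in the Hox values was not tested, and in whole muscle fewer cells of a type and less RNA per cell cannot be told apart.

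As a background level, the 95th percentile of 1027 olfactory receptor genes, which muscle is not known to use, was taken on each array and lay between 5.09 and 5.39. On this level 27 of the 37 Hox genes were above background on all 3 arrays labelled WT diaphragm and 23 in KO diaphragm, against 28 in gastrocnemius of WT and 26 of KO mice. In all, 29 genes were above it in at least 1 group, 21 in every group and 8 in none. The last were *Hoxa2*, *Hoxb7*, *Hoxb13*, *Hoxc12*, *Hoxc13*, *Hoxd1*, *Hoxd3* and *Hoxd12*, mostly genes of the first and last paralog groups.

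KO diaphragm was compared with KO gastrocnemius first, since this comparison uses none of the arrays whose tissue is in doubt. The genes called higher in diaphragm all came from paralog groups 3 to 6 and those called lower from groups 8 to 13, though not every gene of these groups was called. limma called 7 of 37 Hox genes higher, or 18.9%, where 17.7% of all genes were called higher. It called 11 lower, or 29.7%, where 11.2% of all genes were called lower. Thus the share of higher calls was near that of all genes and is no result about the Hox genes as a family, while the share of lower calls was above it. The median log2 difference was -0.12 over the Hox genes and 0.016 over all genes. With each array centred on its own median, which moved the median of all genes to -0.111, 6 Hox genes were called higher and 17 lower, and over all genes 2389 higher and 4323 lower in place of 3535 and 2232. With quantile normalization these were 6 and 14 Hox genes and 2798 and 2828 of all genes. When the arrays labelled WT diaphragm were left out of the fit, 18 Hox genes were called and all 18 were the same.

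The genes that were higher in KO diaphragm come from the front of the clusters. *Hoxa5*, which with *Hoxc5* maintains the phrenic motor neurons of the diaphragm in the mouse and also patterns the airways, had log2 signals of 8.03, 7.77 and 7.70 on the KO diaphragm arrays and 6.09, 6.05 and 5.90 in KO gastrocnemius. It was at 6.20, 5.59 and 5.82 in WT gastrocnemius and at 6.20, 6.16 and 6.34 on the arrays labelled WT diaphragm. The KO diaphragm arrays stood above the other 9 without overlap. The difference between the KO muscles was 1.82 ± 0.14 (SE), or 3.53-fold (limma adjusted p = 3.52e-07).

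*Hoxb4*, a gene of the cervical vertebrae that also acts in blood stem cells, was at 6.08, 6.07 and 6.31 in KO diaphragm and at 5.22, 5.38 and 5.31 in KO gastrocnemius. The arrays labelled WT diaphragm had 5.61, 5.55 and 5.88 and those of WT gastrocnemius 5.45, 5.38 and 5.71. KO diaphragm was highest again, and the WT groups overlapped each other. Between the KO muscles *Hoxb4* differed by 0.85 ± 0.12 (SE), or 1.81-fold (adjusted p = 7.33e-05).

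The HoxC genes 4, 5 and 6 lie side by side and rose together by similar amounts. *Hoxc5*, of the cervical level, had 6.86, 6.84 and 6.88 in KO diaphragm and 6.07, 6.09 and 6.23 in KO gastrocnemius, with 6.07, 6.30 and 6.20 on the arrays labelled WT diaphragm and 6.17, 5.98 and 6.17 in WT gastrocnemius. *Hoxc4*, its neighbour towards the low end of the cluster, had 6.60, 6.47 and 6.93 in KO diaphragm, 5.93, 5.94 and 6.05 in KO gastrocnemius, 6.14, 6.07 and 6.12 on the arrays labelled WT diaphragm and 6.08, 6.21 and 6.35 in WT gastrocnemius. *Hoxc6*, which marks forelimb-level motor neurons, had 6.89, 6.86 and 6.86 in KO diaphragm, 6.13, 6.33 and 6.16 in KO gastrocnemius, 6.17, 6.48 and 6.34 on the arrays labelled WT diaphragm and 6.29, 6.25 and 6.03 in WT gastrocnemius. For all 3 genes each KO diaphragm array was above each of the other 9 arrays. The differences between the KO muscles were 0.73 ± 0.093 (SE) for *Hoxc5* (adjusted p = 4.20e-05), 0.69 ± 0.11 for *Hoxc4* (adjusted p = 0.000351) and 0.66 ± 0.10 for *Hoxc6* (adjusted p = 0.000229).

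*Hoxa3*, needed for the thymus and parathyroid glands, followed another course. It had 5.47, 5.50 and 5.61 in KO diaphragm, 5.21, 4.92 and 5.22 in KO gastrocnemius, 5.39, 5.59 and 5.49 on the arrays labelled WT diaphragm and 5.36, 5.36 and 5.18 in WT gastrocnemius. Here the arrays labelled WT diaphragm overlapped KO diaphragm and lay above WT gastrocnemius, and KO gastrocnemius was not above background on all 3 arrays. The difference between the KO muscles was 0.41 ± 0.10 (SE, adjusted p = 0.00742). *Hoxb5* was higher by 0.29 ± 0.10 (SE, adjusted p = 0.0412), a call that was lost when KO diaphragm replicate 1, 2 or 3, WT gastrocnemius replicate 3 or KO gastrocnemius replicate 3 was left out. It was also lost with median centring, quantile normalization, a fit of only the groups compared and the methods' t-test after Benjamini-Hochberg adjustment.

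**Figure D2:**
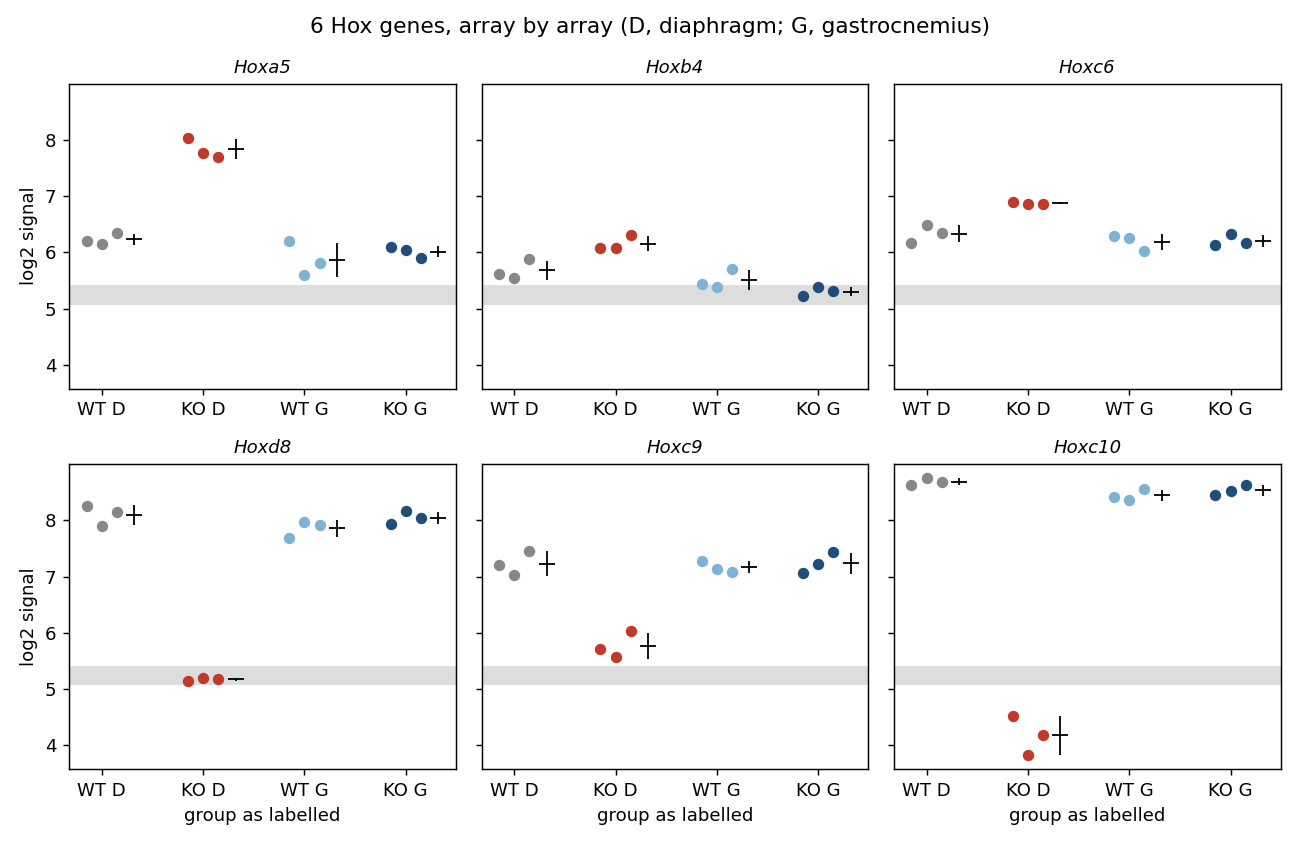
Log2 signal (vertical axis) of 6 Hox genes on each of the 3 arrays (points) of the 4 labelled groups (horizontal axis), with the mean and SD of each group in black. The grey band spans the background levels of the 12 arrays, 5.09 to 5.39, and *Hoxc10* lies below it in KO diaphragm only.

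The genes that were lower in KO diaphragm belong to paralog groups 8 to 13. *Hoxc10*, a gene of the lumbar level and the hindlimb, had log2 signals of 4.53, 3.82 and 4.18 in KO diaphragm, below background on all 3 arrays, and 8.45, 8.52 and 8.63 in KO gastrocnemius. It was at 8.42, 8.36 and 8.55 in WT gastrocnemius and at 8.62, 8.75 and 8.68 on the arrays labelled WT diaphragm. Against the background level it was at least 10.4-fold higher in KO gastrocnemius than in KO diaphragm. The fitted difference between the measured values was -4.35 ± 0.14 (SE, adjusted p = 7.58e-11).

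*Hoxd8*, a gene of the trunk, had 5.14, 5.19 and 5.19 in KO diaphragm, above background on 2 of the 3 arrays, and 7.94, 8.16 and 8.04 in KO gastrocnemius. Its signals were 8.25, 7.90 and 8.15 on the arrays labelled WT diaphragm and 7.68, 7.97 and 7.92 in WT gastrocnemius. The KO diaphragm arrays were far below the other 9, which overlapped. The difference between the KO muscles was -2.87 ± 0.11 (SE), or 7.32-fold (adjusted p = 7.47e-10).

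*Hoxd10*, which specifies lumbar motor neurons, had 5.57, 5.49 and 4.96 in KO diaphragm, 6.88, 6.94 and 6.88 in KO gastrocnemius, 6.72, 6.86 and 7.11 on the arrays labelled WT diaphragm and 6.48, 6.69 and 6.90 in WT gastrocnemius. *Hoxa13*, which patterns the hand and foot and the urogenital tract, had 4.91, 4.90 and 4.64 in KO diaphragm, 6.28, 6.38 and 6.40 in KO gastrocnemius, 5.58, 6.28 and 5.97 on the arrays labelled WT diaphragm and 6.15, 6.06 and 5.88 in WT gastrocnemius. In neither gene did KO diaphragm overlap another group. *Hoxd10* was above background on 2 of the 3 KO diaphragm arrays and differed between the KO muscles by -1.56 ± 0.15 (SE, adjusted p = 4.11e-06). *Hoxa13* was below background on all 3 KO diaphragm arrays, was at least 2.30-fold higher in KO gastrocnemius and had a fitted difference of -1.54 ± 0.15 (SE, adjusted p = 3.14e-06).

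*Hoxc9*, which sets the thoracic level in the spinal cord, had 5.72, 5.58 and 6.03 in KO diaphragm, 7.06, 7.22 and 7.43 in KO gastrocnemius, 7.21, 7.02 and 7.46 on the arrays labelled WT diaphragm and 7.28, 7.14 and 7.07 in WT gastrocnemius. *Hoxa9*, known for its part in blood progenitors and leukaemia, had 5.78, 5.57 and 5.67 in KO diaphragm, 7.07, 7.25 and 6.99 in KO gastrocnemius, 6.80, 7.11 and 7.12 on the arrays labelled WT diaphragm and 7.29, 7.29 and 6.97 in WT gastrocnemius. Again the KO diaphragm arrays were lowest in both genes and the remaining groups overlapped. The differences between the KO muscles were -1.46 ± 0.14 (SE) for *Hoxc9* (adjusted p = 3.24e-06) and -1.43 ± 0.12 for *Hoxa9* (adjusted p = 1.02e-06).

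The other 5 lower genes, *Hoxd9*, *Hoxc11*, *Hoxc8*, *Hoxa11* and *Hoxa10*, differed by -1.05 to -0.80, with adjusted p from 2.07e-05 (*Hoxc8*) to 0.00159 (*Hoxa11*). Of these, *Hoxc11* was above background on only 1 of the 3 KO diaphragm arrays. *Hoxa10*, *Hoxa11* and *Hoxd9* pattern the limb skeleton, and *Hoxc8* the lower neck and chest. The 19 Hox genes not called ranged from -0.25 to 0.28, and 3 of them had an unadjusted p under 0.05.

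Along paralog number, the sign of the called differences changed between groups 6 and 8. Of 19 genes in paralog groups 1 to 7, 7 were called higher and 0 lower (limma), and of 18 genes in groups 8 to 13, 0 were called higher and 11 lower, a split that was placed after the values were seen. It did not hold with median centring, where *Hoxa4*, *Hoxb6*, *Hoxd3* and *Hoxd4* were called lower. The split also failed with quantile normalization, without KO diaphragm replicate 3 and with the unadjusted methods' t-test, where *Hoxa4* was called lower. All 3 paralog 5 genes were higher, both paralog 8 genes were lower, and all 3 genes of paralog group 10 were lower. Among the paralog 5 genes, the call of *Hoxb5* was lost in the alternatives given above. In paralog group 9, *Hoxa9*, *Hoxc9* and *Hoxd9* were lower while *Hoxb9* had -0.25 ± 0.12 (SE, adjusted p = 0.13). Paralog group 4 was split, with *Hoxb4* and *Hoxc4* higher and *Hoxa4* (-0.22) and *Hoxd4* (-0.16) not called. In group 13 only *Hoxa13* was called, and *Hoxb13*, *Hoxc13* and *Hoxd13* had -0.055, 0.11 and 0.27. As a description over 37 genes that share the same arrays, Pearson's r between paralog number and the difference was -0.396 and Spearman's rho was -0.461.

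**Figure D3:**
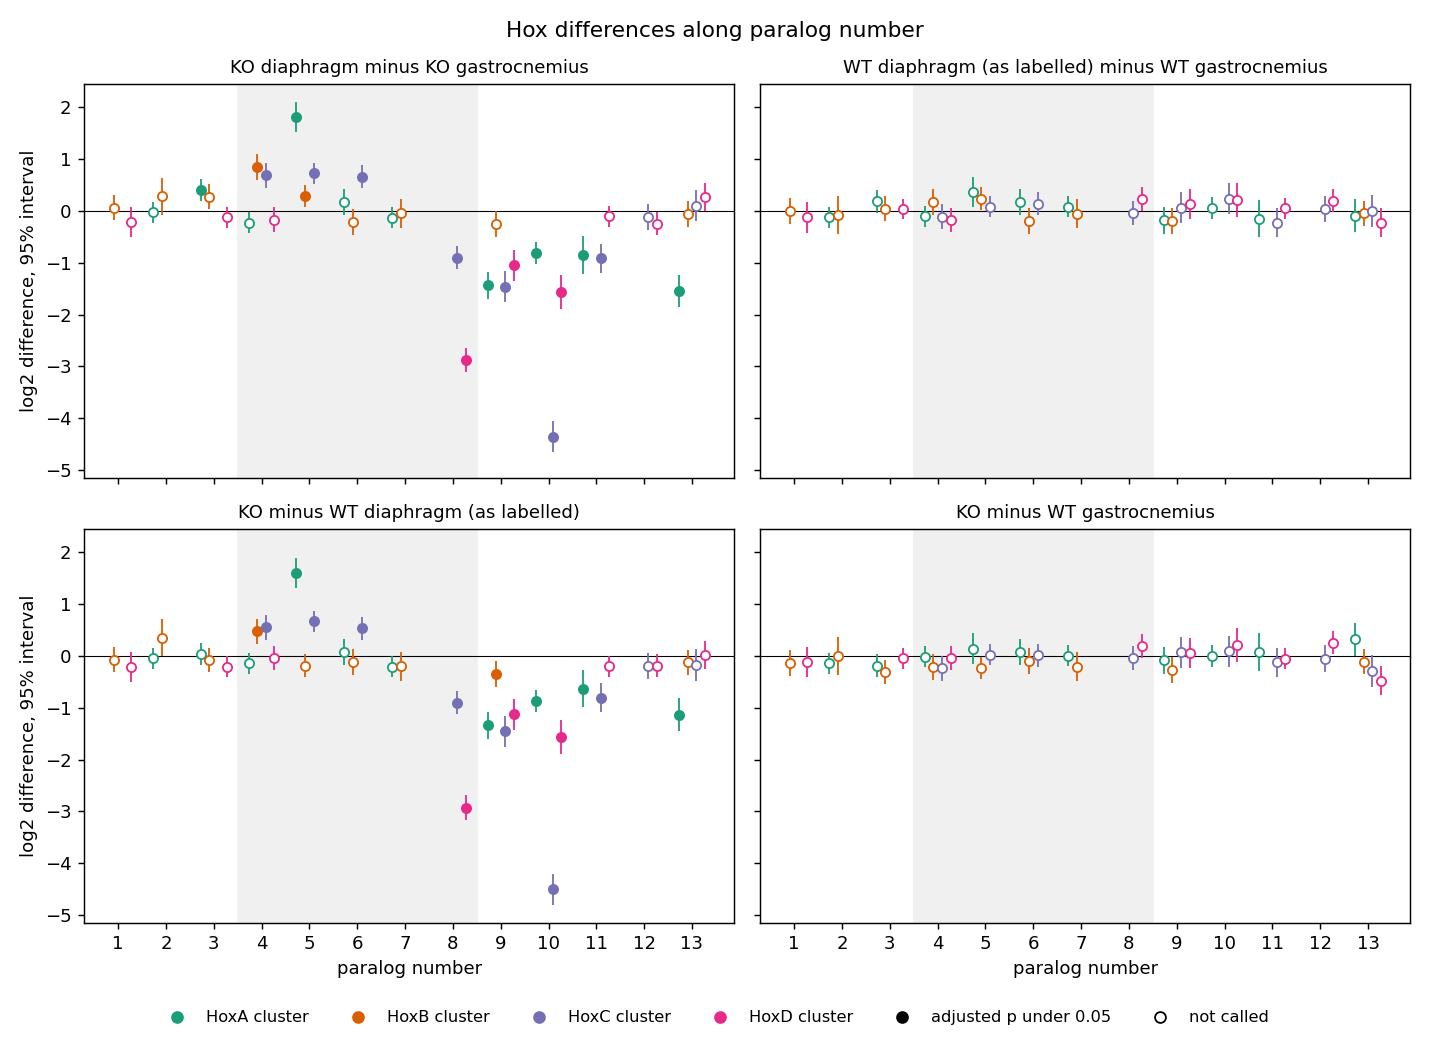
Log2 difference with its 95% interval (vertical axis) against paralog number (horizontal axis) for 37 Hox genes in 4 comparisons, coloured by cluster, with filled points at an adjusted p under 0.05 and paralogs 4 to 8 shaded. Between the KO muscles 7 genes are called higher and 11 lower, while none is called in the comparisons of WT diaphragm (as labelled) with WT gastrocnemius and of KO with WT gastrocnemius.

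The clusters differed in their calls. HoxC had 3 genes higher and 4 lower of 9, changing sign between *Hoxc6* and *Hoxc8*. HoxA had 2 higher and 4 lower of 10, with *Hoxa4*, *Hoxa6* and *Hoxa7* not called in between. HoxD had 3 lower of 9, which were the adjacent genes *Hoxd8*, *Hoxd9* and *Hoxd10*, and 0 higher. HoxB had 2 higher and 0 lower of 9, the larger being *Hoxb4* at 0.85 and the other *Hoxb5*. The higher shares of HoxA (20%) and HoxB (22.2%) were near the 17.7% of all genes, and that of HoxC (33.3%) was above it. The lower shares of HoxA (40%), HoxC (44.4%) and HoxD (33.3%) were above the 11.2% of all genes. Of the 9 HoxB genes, *Hoxb7* and *Hoxb13* were at background in all 4 groups. Within clusters, r with paralog number was -0.699 in HoxA, -0.487 in HoxB, -0.378 in HoxC and -0.058 in HoxD. A test of the clusters against each other was not made, since genes of a cluster share the arrays.

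WT diaphragm as labelled against WT gastrocnemius gave 0 called Hox genes of 37 in limma, where 0.296% of all genes were called higher and 0.166% lower. *Hoxa5*, *Hoxb5* and *Hoxd8* were the 3 with an unadjusted p under 0.05, and the methods' t-test gave 2 unadjusted and 0 after Benjamini-Hochberg. The differences ranged from -0.23 to 0.36, and the 95% intervals lay within -0.51 and 0.66. *Hoxa5* had the largest difference, 0.36 ± 0.14 (SE, adjusted p = 0.27), against 1.82 in the KO muscles. For *Hoxc10* the difference was 0.24 with a 95% interval from -0.054 to 0.54, which does not reach the -4.35 between the KO muscles.

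KO against WT diaphragm as labelled gave 5 Hox genes higher, or 13.5%, where 16.3% of all genes were called higher, and 12 lower, or 32.4%, where 11.2% of all genes were called lower. The 5 higher were *Hoxa5*, *Hoxb4*, *Hoxc4*, *Hoxc5* and *Hoxc6*, with differences from 0.48 (*Hoxb4*) to 1.599 (*Hoxa5*). The lower genes were led by *Hoxc10* at -4.51 (at least 11.6-fold) and *Hoxd8* at -2.92. With median centring 5 Hox genes were higher and 15 lower, and over all genes 2667 and 3836 in place of 3258 and 2238. This comparison shares the KO diaphragm arrays with that of the KO muscles, and 16 genes were called in the same direction in both. *Hoxb9*, of the thoracic level, was called lower here only (-0.35 ± 0.12, SE, adjusted p = 0.041), and *Hoxa3* and *Hoxb5* were called between the KO muscles only. Since the arrays labelled WT diaphragm have Hox signals near those of gastrocnemius, genotype and muscle position cannot be told apart in these values.

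In gastrocnemius, the muscle whose labels the Hox genes did not contradict, limma called 0 of 37 Hox genes between KO and WT, where 0.406% of all genes were called higher and 0.186% lower. The methods' t-test gave 3 unadjusted and 0 after Benjamini-Hochberg, and limma gave 6 at an unadjusted p under 0.05. The lowest p was that of *Hoxd13*, which patterns the digits, with 4.80, 5.19 and 4.79 in KO and 5.61, 5.26 and 5.34 in WT gastrocnemius. It had 5.15, 5.07 and 5.32 on the arrays labelled WT diaphragm and 5.07, 5.19 and 5.34 in KO diaphragm. Its signals lay close to background throughout, and the difference was -0.48 ± 0.13 (SE, adjusted p = 0.10).

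*Hoxb3*, a gene of the hindbrain and neck, came next, with 6.07, 5.89 and 6.03 in KO and 6.46, 6.42 and 6.05 in WT gastrocnemius. Its KO diaphragm arrays had 6.36, 6.14 and 6.34 and those labelled WT diaphragm 6.40, 6.34 and 6.33. KO and WT gastrocnemius overlapped at 1 WT array, and the difference was -0.31 ± 0.11 (SE, adjusted p = 0.20). All 9 HoxB genes had a negative difference in gastrocnemius, from -0.31 to -0.0026, but none was called. Over the 37 genes the differences ran from -0.48 to 0.32 with a median of -0.047, and the 95% intervals lay within -0.75 and 0.63.

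The change with the knockout differed between diaphragm as labelled and gastrocnemius for 15 Hox genes (the interaction term in limma). It was more positive in diaphragm for 5 genes, or 13.5%, where 8.76% of all genes were called, and more negative for 10, where 6.07% were called. *Hoxc10* had an interaction of -4.59 ± 0.19 (SE, adjusted p = 8.94e-09) and *Hoxd8* one of -3.11 ± 0.15 (adjusted p = 2.93e-08). *Hoxa5* had the largest positive value, 1.46 ± 0.19 (adjusted p = 0.000188). With median centring 4 Hox genes had a more positive and 12 a more negative value, and over all genes 1225 and 2291 in place of 1747 and 1211. This term includes the arrays labelled WT diaphragm, and without them it has no value.

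Hox proteins bind DNA with TALE homeodomain partners. Of 8 such cofactor genes, 3 were called higher (37.5%, against 17.7% of all genes) and 1 lower (12.5%, near the 11.2% of all genes) between the KO muscles. *Meis2*, whose protein is a partner of Hox and Pbx proteins, had 7.71, 7.86 and 8.20 in KO diaphragm and 5.24, 5.33 and 5.10 in KO gastrocnemius, with 5.68, 5.28 and 5.21 on the arrays labelled WT diaphragm and 5.36, 5.08 and 5.53 in WT gastrocnemius. KO diaphragm alone was above background on all 3 arrays. KO gastrocnemius was above it on 2 of 3, and the measured difference was 2.70 ± 0.15 (SE, adjusted p = 2.28e-08). *Meis1*, its close relative, was higher by 1.11 ± 0.12 (adjusted p = 1.17e-05), *Pbx2* by 0.28 ± 0.091 (adjusted p = 0.0353) and *Pknox2* fell by 0.48 (SE 0.13, adjusted p = 0.0107). In gastrocnemius 0 of 8 were called between KO and WT in limma, with 1 at an unadjusted p under 0.05.

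Of 31 genes that regulate Hox expression, 3 were called higher and 3 lower between the KO muscles, or 9.68% each way. The higher share was below the 17.7% of all genes. The lower share was near the 11.2% of all genes and is no result about these regulators as a group. *Gdf11*, a secreted factor that sets the start of hindlimb-level Hox expression in the embryo, had 6.62, 6.54 and 6.43 in KO diaphragm and 8.07, 8.16 and 8.13 in KO gastrocnemius. It had 7.51, 7.80 and 7.73 on the arrays labelled WT diaphragm and 7.83, 8.03 and 7.89 in WT gastrocnemius. The difference between the KO muscles was -1.59 ± 0.098 (SE, adjusted p = 5.14e-08). *Aldh1a2*, which makes retinoic acid, an inducer of the front Hox genes, was higher by 1.19 ± 0.20 (adjusted p = 0.000391), and *Rarg*, a retinoic acid receptor gene, by 0.46 ± 0.13 (adjusted p = 0.0148). *Cdx1*, a homeobox gene that activates Hox genes, had -0.36 ± 0.13 (adjusted p = 0.0483). The other 25 regulators were not called.

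Other position genes were also tested. Of 10, 1 was called higher, below the 17.7% of all genes, and 4 lower, above the 11.2% of all genes, between the KO muscles. *Shox2*, a short stature homeobox gene of the limb and heart, had 6.03, 5.87 and 5.95 in KO diaphragm and 4.82, 4.78 and 4.89 in KO gastrocnemius, the latter below background on all 3 arrays, and was at least 1.76-fold higher (fitted difference 1.12 ± 0.16, SE, adjusted p = 0.000124). *Lbx1*, which guides migrating muscle precursors into the limb, had 7.41, 7.33 and 7.42 in KO diaphragm and 8.51, 8.36 and 8.54 in KO gastrocnemius, a difference of -1.08 ± 0.097 (adjusted p = 1.88e-06). On the arrays labelled WT diaphragm *Lbx1* had 8.24, 8.34 and 8.57, close to the 8.53, 8.52 and 8.60 of WT gastrocnemius. *Tbx15*, a T-box gene of glycolytic muscle, had -0.55 ± 0.13 (adjusted p = 0.00534) and *Zic1*, which was not above background in any group, had -0.42 ± 0.14 (adjusted p = 0.0411). *Tbx4*, a gene of the hindlimb bud that is named here after its values were seen, had -0.40 ± 0.11 (adjusted p = 0.0139). *Shox2* was above background in KO diaphragm only.

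The genes beside the clusters were compared as their surroundings. All 29 measured neighbours lay within 8 genes of a cluster, and 6 were called higher (20.7%, near the 17.7% of all genes) and 1 lower (3.45%, below the 11.2% of all genes) between the KO muscles. The higher share is thus no result about the neighbours as a group. *Skap2*, an adaptor protein gene next to the low end of HoxA, had 7.18, 7.26 and 7.44 in KO diaphragm against 5.68, 5.98 and 6.27 in KO gastrocnemius, a difference of 1.31 ± 0.13 (SE, adjusted p = 4.31e-06). On the arrays labelled WT diaphragm *Skap2* had 6.02, 6.12 and 5.88. *Mtx2*, of the mitochondrial outer membrane and next to the low end of HoxD, was higher by 0.49 ± 0.10 (adjusted p = 0.00207). *Atp5g3* and *Atp5g1*, subunits of the ATP synthase, were higher by 0.68 ± 0.097 and 0.54 ± 0.13. Beyond the high end, *Evx1* (HoxA), *Ttll6* (HoxB), *Calcoco1* (HoxC) and *Evx2* (HoxD) had differences of 0.051, -0.090, 0.060 and -0.15 and were not called, so that of the 8 genes directly adjoining a cluster 2 were called. *Evx1* and *Ttll6* were not above background on all 3 arrays of any group and could show no lower signal, which leaves *Calcoco1* and *Evx2* as measured genes next to the high ends.

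**Figure D4:**
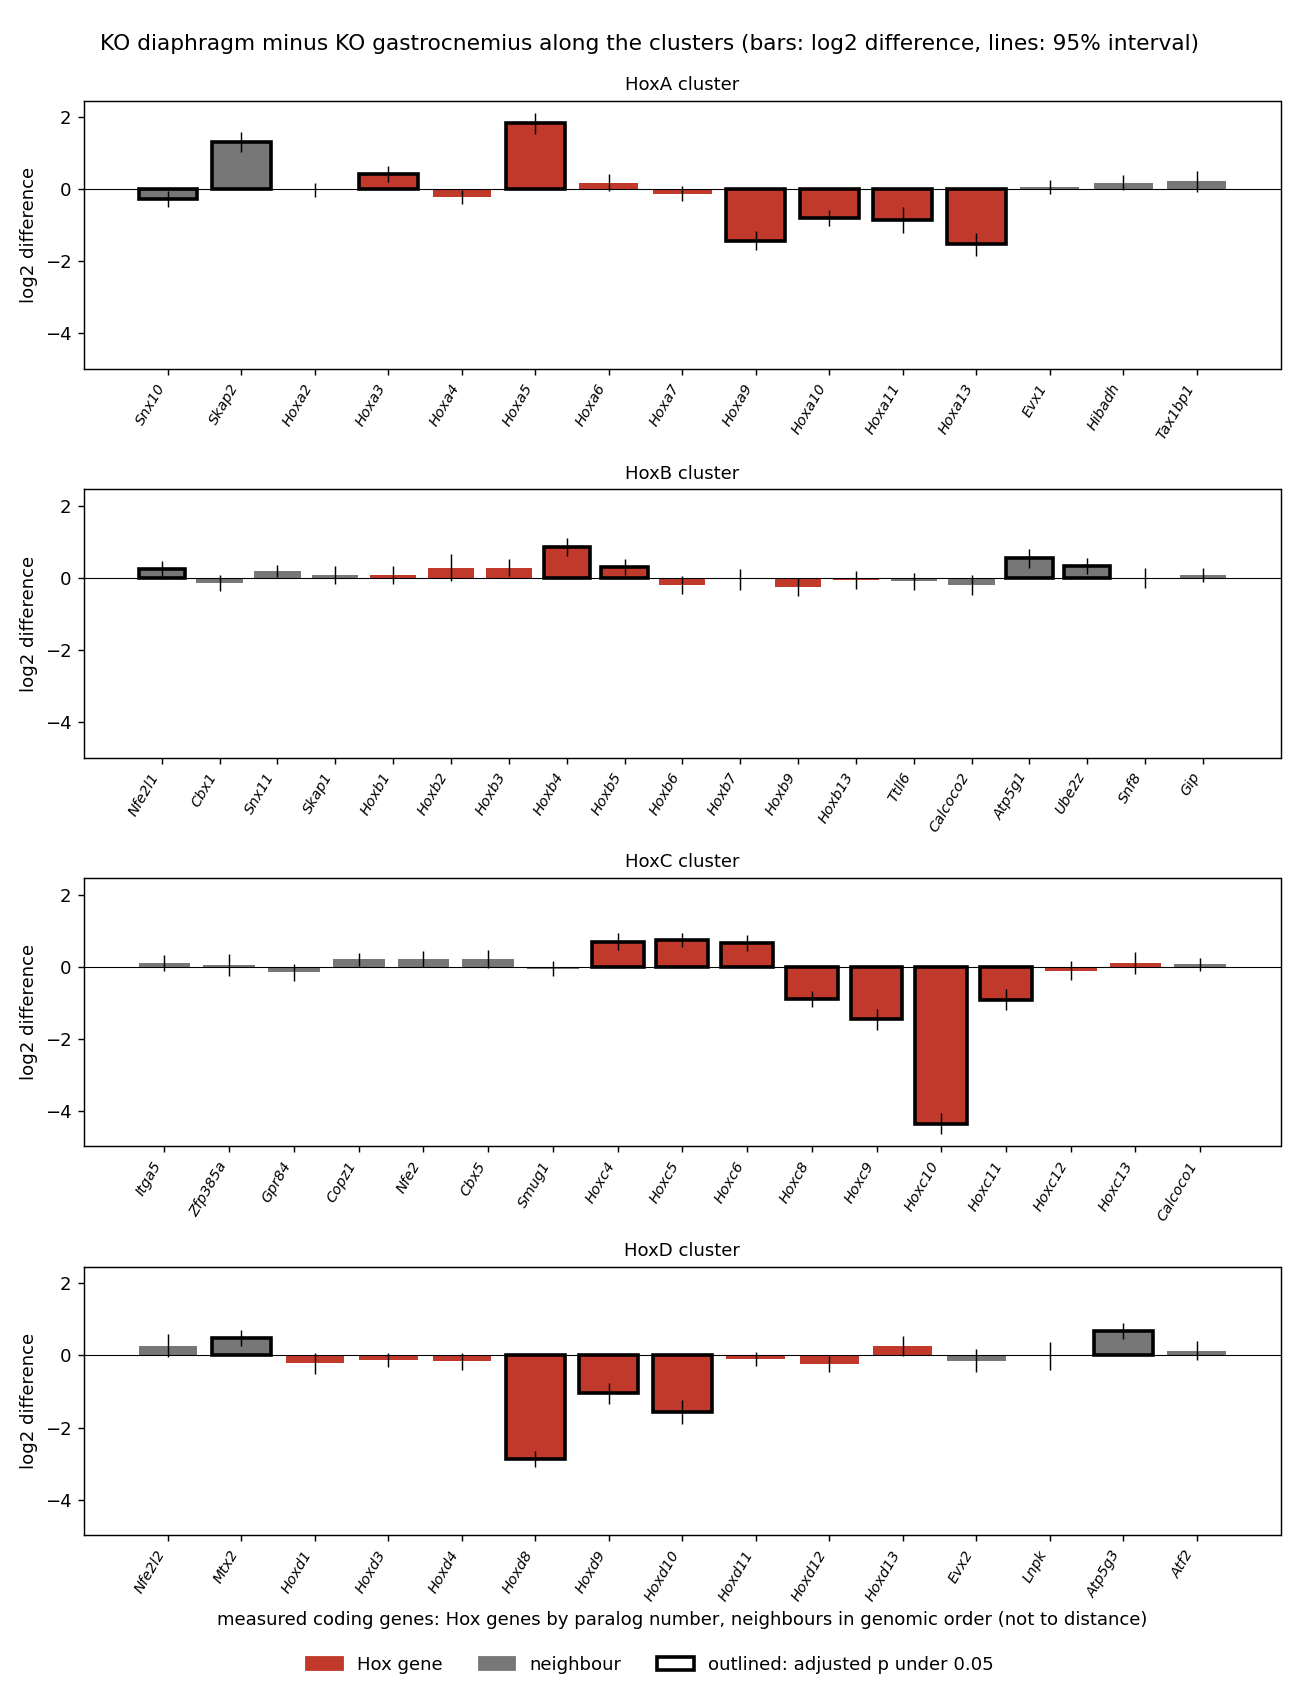
Log2 difference between KO diaphragm and KO gastrocnemius (vertical axis, bars with 95% intervals) for Hox genes by paralog number (red) and their measured neighbours in genomic order (grey), with outlined bars at an adjusted p under 0.05. *Hoxa9* to *Hoxa13*, *Hoxc8* to *Hoxc11* and *Hoxd8* to *Hoxd10* form runs of lower genes, while no neighbour past a high end is called lower and *Atp5g1*, *Ube2z* and *Atp5g3* are called higher.

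Of 8 noncoding genes in the clusters, limma called 1 lower (12.5%, near the 11.2% of all genes) and 0 higher (17.7% of all genes) between the KO muscles, and 3 had an unadjusted p under 0.05. The share of lower calls is thus no result about these genes as a group. The lower one was *Mir196a-2*, which lies between *Hoxc9* and *Hoxc10* and had 3.65, 3.77 and 3.44 in KO diaphragm, 4.22, 3.92 and 4.52 in KO gastrocnemius, 4.23, 4.28 and 4.32 on the arrays labelled WT diaphragm and 4.28, 4.08 and 3.94 in WT gastrocnemius. All of these signals lay below background, so that the fitted difference of -0.60 ± 0.14 (SE, adjusted p = 0.00481) compares signals without a measured level. *Mir196b*, whose product has the same seed, was lower in KO than on the arrays labelled WT diaphragm (-0.46 ± 0.12, adjusted p = 0.00897) and had -0.28 between the KO muscles (adjusted p = 0.0892). *Mir10a* and *Mir10b* had -0.15 and -0.24 between the KO muscles (adjusted p = 0.259 and 0.0667). All 8 noncoding genes except *Mir615* were not above background in any group, so that no fold is given.

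Promoter sequence was available in RefSeq for 21 of the 37 genes, in 23 windows of 250 bases before and 50 after the start, and *Hoxc10* was not among them. The 250 bases before the start are printed for the genes with the largest difference in either direction among these, *Hoxa5* (chr6:52204588-52204837, minus strand, GRCm38.p6) and *Hoxd8* (chr2:74704365-74704614, plus strand), with CG dinucleotides, the sites of DNA methylation, in capitals.
Hoxa5: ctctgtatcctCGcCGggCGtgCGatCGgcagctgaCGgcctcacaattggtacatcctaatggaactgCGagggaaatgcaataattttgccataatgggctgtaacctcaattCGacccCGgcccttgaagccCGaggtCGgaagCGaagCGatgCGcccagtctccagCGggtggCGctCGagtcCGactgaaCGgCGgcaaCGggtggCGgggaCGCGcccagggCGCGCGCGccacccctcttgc
Hoxd8: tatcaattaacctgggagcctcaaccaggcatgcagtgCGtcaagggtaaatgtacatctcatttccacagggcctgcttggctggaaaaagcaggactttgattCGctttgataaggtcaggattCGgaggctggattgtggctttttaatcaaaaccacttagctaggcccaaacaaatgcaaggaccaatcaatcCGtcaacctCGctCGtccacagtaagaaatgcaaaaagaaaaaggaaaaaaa
The *Hoxa5* stretch held 28 CG and 63.6% G or C and that of *Hoxd8* 6 CG and 44.4%, where the median over 32851 promoters was 6 CG. At least as many CG as in *Hoxa5* occurred in 7.6% of all promoters, and at least as many as in *Hoxd8* in 50.4%. The Hox-Pbx motif TGATNNAT, searched on both strands, was in 3 of 23 Hox windows and in 8.8% of all promoters, and TAATTA, a core homeodomain motif, in 2 of 23 and in 5.3%. The windows with a match belonged to *Hoxa2*, *Hoxb1* and *Hoxd11*, of which none was called between the KO muscles. Such a match is a description of letters and not a binding site.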

How the data were processed

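RNA of 12 muscle samples, 3 in each of the 4 groups, had been hybridised to Affymetrix Mouse Gene 1.0 ST arrays from 100 ng of total RNA. The authors normalised the arrays by RMA with a sketch in Affymetrix Expression Console (version not given in the sources used here) and deposited log2 signals, from 1.65 to 14.4, which were used unchanged. Of 35556 probe sets, 21789 had 1 gene symbol, 1621 had several and 12146 were not listed in the platform annotation. For the 999 genes with several probe sets the brightest was kept, which left 19938 genes. Groups were taken from the sample labels, which call the replicates biological but do not say how mice were paired.

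One linear model with the 4 groups was fitted with limma 3.58.1 in R 4.3.3 (lmFit, eBayes), with Benjamini-Hochberg adjustment over all genes at 0.05, and statmod 1.5.0 served the random block. The number of arrays limits the precision, and the median 95% interval of a Hox difference was 0.2485 to either side in gastrocnemius. On simulated data of 19938 genes for KO diaphragm against KO gastrocnemius, limma recovered 100 of 100 genes given a log2 change of 1 and 50 of 100 given one of 0.5, with 10 false calls. Genes given array by array are the 6 with the highest and the 6 with the lowest called difference between the KO muscles and the 2 with the lowest p in gastrocnemius, and up to 4 called genes are named from each further list. The Hox members, the lists of cofactors, regulators, position genes, neighbours, noncoding genes and cell type markers, and the tests were chosen with earlier results of these data known. Alternatives were other scalings, filters, probe set rules, eBayes settings, the replicate block, single comparisons, the methods' t-test (unpaired, two-tailed) and leaving out each array. One further fit, chosen after seeing the data, left out all 3 arrays labelled WT diaphragm.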

Additional observations from a re-analysis of the deposited data

Results flagged for a closer look

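The change with the knockout differed between diaphragm as labelled and gastrocnemius by the interaction term in limma for 15 Hox genes, and each of these values rests on the arrays labelled WT diaphragm. It was more positive in diaphragm for *Hoxa5* (1.46), *Hoxc4* (0.80), *Hoxb4* (0.68), *Hoxc5* (0.64) and *Hoxc6* (0.52) on the log2 scale, with adjusted p from 0.000188 to 0.0261. It was more negative for *Hoxc10* (-4.59), *Hoxd8* (-3.11), *Hoxd10* (-1.77), *Hoxc9* (-1.53), *Hoxa13* (-1.45), *Hoxa9* (-1.26), *Hoxd9* (-1.18), *Hoxa10* (-0.87), *Hoxc8* (-0.86) and *Hoxc11* (-0.68), with adjusted p from 8.94e-09 to 0.0213.

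The same term passed the threshold for 13 genes of the further lists. More positive in diaphragm were the cofactor genes *Meis2* (2.64) and *Meis1* (0.95), the retinoic acid enzyme gene *Aldh1a2* (1.42), the neighbours *Skap2* (1.19), *Atp5g1* (0.56), *Atp5g3* (0.54) and *Mtx2* (0.47), and the position gene *Shox2* (1.00). More negative were *Gdf11* (-1.36), *Lbx1* (-0.91), *Mir196a-2* (-0.78), *Pknox2* (-0.63) and *Tbx15* (-0.59). *Mir196a-2* was below background on every array, *Hoxc10* and *Hoxa13* were so in KO diaphragm and *Shox2* in KO gastrocnemius, so that their values are fitted and not measured on both sides. In KO diaphragm, *Hoxd8* and *Hoxd10* were above background on 2 of 3 arrays and *Hoxc11* on 1 of 3.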

How the results depend on the processing

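For the Hox genes given array by array, no difference between groups that was called in the main fit or in the alternative changed direction. Changes of sign where neither called the gene were not counted. Of the 12 genes described array by array as called between the KO muscles, *Hoxa3* missed the threshold with the methods' t-test after Benjamini-Hochberg adjustment (adjusted p = 0.0753). That test called 3 Hox genes higher in KO than in WT diaphragm as labelled, in place of 5. Without adjustment it gave 2 higher and 1 lower in gastrocnemius and 2 higher between the arrays labelled WT diaphragm and WT gastrocnemius, where limma called 0. Median centring raised the lower Hox genes between the KO muscles from 11 to 17. With the 29 Hox genes above background, the share of values on the arrays labelled WT diaphragm that lay nearer to KO gastrocnemius was 72.4% in place of 83.3%. With the 99th percentile as background, 15, 10, 15 and 16 genes were above it on the arrays labelled WT diaphragm and those of KO diaphragm, WT gastrocnemius and KO gastrocnemius. Leaving out 1 array moved no count of Hox calls by over 1.5 times. Between the KO muscles, though, *Hoxb3* (adjusted p = 0.0352 without WT gastrocnemius replicate 3) and *Hoxd13* (0.0330 without KO gastrocnemius replicate 2) were then called. *Hoxa4* was called lower between them without KO diaphragm replicate 3. With the replicate block as a fixed effect, 7 Hox genes were higher and 11 lower between the KO muscles, and 11 in place of 12 were lower in KO than in WT diaphragm as labelled. The labels do not say whether replicate numbers pair the arrays and the data gave no sign of it, as same-numbered arrays correlated at -0.096 to 0.161 in their deviations from the group means and 4 of 12 were closest to their own number. Without the arrays labelled WT diaphragm, a fit chosen after seeing the data, the same 18 genes were called between the KO muscles. Among genes at or above the median signal, 13 Hox genes were called, and *Hoxa3*, *Hoxa11*, *Hoxa13*, *Hoxb4* and *Hoxc11* fell below that signal and were not tested.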
